A study of Homo sapiens with 6 samples.

Results

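The genes described are the FGF receptors FGFR1, FGFR2, FGFR3, FGFR4 and FGFRL1, the ligand FGF17, and FLRT1, FLRT2 and FLRT3. They are 9 of the 20037 protein-coding genes of the RefSeq table, and each was followed through the DRIP-seq peaks that lay in its span plus 2 kb on each side. DRIP-seq (DNA-RNA hybrid immunoprecipitation) uses the S9.6 antibody to recover DNA carrying an RNA strand, that is, an R-loop. The material was SH-SY5Y, a human neuroblastoma line, carrying a lentiviral hairpin, shT2 (3 samples) or shNC3 (3 samples), and kept under puromycin. The series concerns TDP-43 knockdown; the hairpin names are read here as the knockdown (shT2) and its negative control (shNC3), which the labels do not spell out. Every sample of both groups thus carries a vector and went through selection, and each hairpin is taken as 1 selected population. The members were selected on measured values of this same contrast: the covered lengths of shT2 and shNC3 were known, and FLRT1 and FGF17 had stood among the genes with the largest differences. Their values are therefore given as a description, with no test.

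FGF receptors are receptor tyrosine kinases that, on binding an FGF and heparan sulphate, pair up and signal through the docking protein FRS2 to the RAS, RAF and MAP kinase chain. FGFRL1 binds FGFs but lacks the kinase, and FGF17 is a secreted FGF of the FGF8 subfamily that patterns the midbrain and cerebellum. The FLRT proteins are membrane proteins with leucine-rich repeats that bind FGF receptors on the same cell and, on other cells, latrophilins and UNC5 receptors in axon guidance. R-loops form as RNA polymerase transcribes, often over GC-rich DNA near the start and end of genes.

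The lists held 49005 to 50896 peaks in the shT2 samples and 42651 to 45320 in the shNC3 samples, and the peaks covered 72.6 to 78.1 Mb and 62.8 to 70.4 Mb. The libraries differed in depth. The genome-wide background recovered from the peak values was 3.08 to 3.46 fragments per base in shT2 and 1.65 to 1.79 in shNC3, a ratio of 1.90 between the group means. At that background a peak needed 12 to 13 fragments at its summit in shT2 and 8 in shNC3. Each member was therefore also measured at equal depth, with summit and background scaled to the shallowest library and peaks that no longer reached the lists' own threshold dropped. Peaks that were kept retained their full deposited width. This setting thus removes peaks that depend on depth but cannot correct any effect of depth on peak width. Of 10 markers of sympathetic neuroblastoma, 8 were covered in all 6 samples, TH had no peak in any, and their summed cover ranged from 94.7 to 102 kb in shT2 and, in shNC3, from 86.9 to 95.2 kb. Of 6 markers of fibroblast or Schwann-like cells, PDGFRB and VIM were covered in all 6 samples and COL1A2 and S100B had no peak in any. The summed cover of those 6 ranged from 34.4 to 37.1 kb in shT2 and, in shNC3, from 47.7 to 51.1 kb. COL1A1 accounted for the gap, with means of 0.216 kb in shT2 and 14.3 kb in shNC3, while PDGFRB had 28.6 and 27.2 kb and VIM 6.59 and 7.35 kb. The part of this difference in the results below was not tested. These were bulk samples, in which fewer cells carrying an R-loop and less R-loop per cell cannot be told apart.

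Across all genes, 11771 were covered in at least 3 samples and entered a limma fit of log2(scaled covered bp + 500), where each sample is scaled by its total cover to the mean of all 6. Of these, 51.3% passed an adjusted p of 0.05, 24.2% with longer cover in shT2 and 27.2% with shorter. The 3 values of each group did not overlap for 27.6% of genes in the direction of longer cover in shT2 and for 37.4% in the direction of shorter. Among the 9 members, 7 had peaks and entered the fit. The groups did not overlap for FGF17, FLRT1 and FGFR2 (longer in shT2) and for FGFR4 (shorter in shT2), and they overlapped for FGFR1, FGFR3 and FGFRL1. FLRT1 was the only member with a peak in every shT2 sample and none in any shNC3 sample (2.82% of the genes tested), and no member had the reverse (3.22%). FLRT1 passed the filter through its shT2 samples alone and so had to differ. FLRT2 and FLRT3 had no peak in any sample. By log2 difference FLRT1 stood at rank 5 and FGF17 at rank 12 of all genes tested. The rule used this contrast, so nothing is read from these counts.

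**Figure D1:**
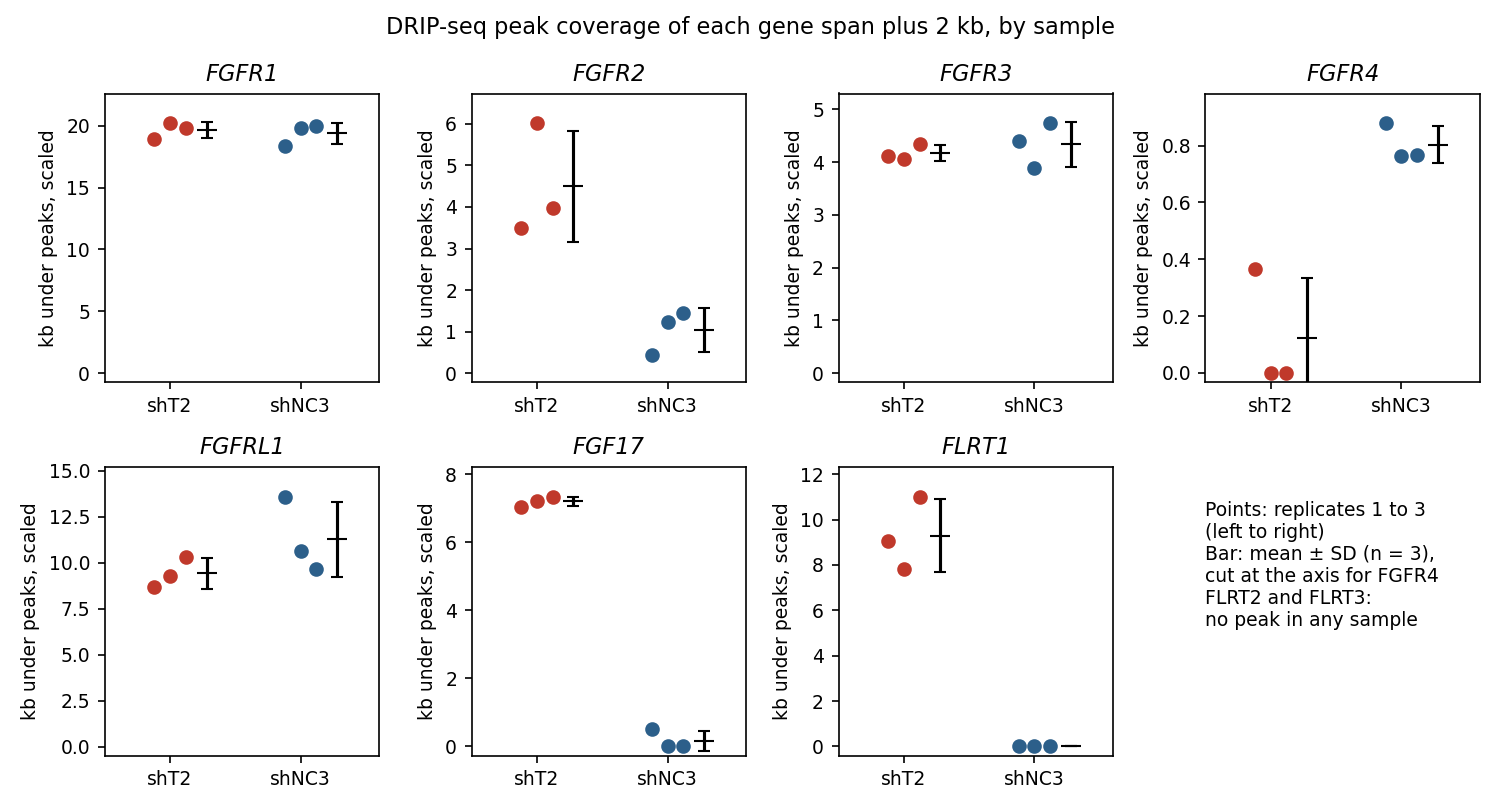
Covered length in kb, scaled for total cover, of the 7 members with a peak (y axis), for the 3 samples of each hairpin (points, replicates 1 to 3 from left to right), with the mean ± SD beside them. FGF17, FLRT1 and FGFR2 have all shT2 points above all shNC3 points, FGFR4 has them below, and FGFR1, FGFR3 and FGFRL1 overlap.

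Promoter sequences from RefSeq (GRCh38.p14, 250 bases before to 50 after an annotated start, read on the gene's own strand) were at hand for 7 of the 9 members. Of their starts, 6 are printed, with runs of at least 4 G in capitals, because they show where peaks lay and did not lie relative to GC-rich starts. FGFR2 has 5 starts in the table. FGFR2 start 4 lies at chr10:121596596-121596895 (minus strand, GC 50.3%) and was covered over all 300 bases in the 3 shT2 samples and in shNC3 replicate 3. FGFR2 start 5, at chr10:121598395-121598694 (minus strand, GC 79.3%), was covered over 300 bases in shT2 replicate 2, and over 230 and 152 bases in shNC3 replicates 1 and 2. The FGFRL1 promoter, at chr4:1012214-1012513 (plus strand, GC 68.3%), was covered over 264, 300 and 269 bases in shT2 and over 203, 300 and 0 bases in shNC3. FLRT1 start 2, at chr11:64036432-64036731 (plus strand, GC 70.3%), was covered over 75 bases in shT2 replicate 2 and not in the other samples. These 4 met the rule of a promoter under a peak in at least 1 sample, with FGFR2 giving both of its covered starts. FLRT1 start 1, at chr11:64035681-64035980 (plus strand, GC 84.0%), and the FGFR3 promoter, at chr4:1793043-1793342 (plus strand, GC 86.3%), had no peak over them in any sample and were chosen after their values were seen.
FGFR2 start 4: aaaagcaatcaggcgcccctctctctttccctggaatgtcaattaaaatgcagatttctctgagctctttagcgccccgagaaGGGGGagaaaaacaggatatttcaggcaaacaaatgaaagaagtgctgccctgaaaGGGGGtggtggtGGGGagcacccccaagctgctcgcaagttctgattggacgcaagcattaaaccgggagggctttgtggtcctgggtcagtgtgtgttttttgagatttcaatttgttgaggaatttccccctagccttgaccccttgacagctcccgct
FGFR2 start 5: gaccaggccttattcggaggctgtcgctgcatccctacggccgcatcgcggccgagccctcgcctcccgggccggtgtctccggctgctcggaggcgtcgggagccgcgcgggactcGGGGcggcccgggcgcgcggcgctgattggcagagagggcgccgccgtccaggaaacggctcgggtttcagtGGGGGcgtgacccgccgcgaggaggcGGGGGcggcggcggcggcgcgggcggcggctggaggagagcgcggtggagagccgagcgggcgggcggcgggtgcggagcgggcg
FGFR3 start: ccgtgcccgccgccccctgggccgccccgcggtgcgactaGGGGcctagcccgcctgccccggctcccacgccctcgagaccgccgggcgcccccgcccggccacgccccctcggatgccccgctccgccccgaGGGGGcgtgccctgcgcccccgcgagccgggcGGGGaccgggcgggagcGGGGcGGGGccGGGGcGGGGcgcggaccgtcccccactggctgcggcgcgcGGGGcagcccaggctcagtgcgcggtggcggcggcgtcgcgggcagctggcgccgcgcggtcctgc
FGFRL1 start: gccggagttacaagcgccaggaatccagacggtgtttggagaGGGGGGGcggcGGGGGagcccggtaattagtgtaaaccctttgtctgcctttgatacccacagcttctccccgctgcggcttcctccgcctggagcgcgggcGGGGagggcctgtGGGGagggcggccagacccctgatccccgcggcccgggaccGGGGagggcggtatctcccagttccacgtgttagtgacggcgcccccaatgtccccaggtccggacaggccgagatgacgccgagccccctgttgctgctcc
FLRT1 start 1: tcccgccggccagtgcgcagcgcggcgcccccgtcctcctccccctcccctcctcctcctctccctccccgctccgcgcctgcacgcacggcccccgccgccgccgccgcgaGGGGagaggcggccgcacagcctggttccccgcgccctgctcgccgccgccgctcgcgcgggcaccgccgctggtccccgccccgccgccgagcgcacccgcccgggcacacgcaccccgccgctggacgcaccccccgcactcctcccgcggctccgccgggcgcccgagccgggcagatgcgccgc
FLRT1 start 2: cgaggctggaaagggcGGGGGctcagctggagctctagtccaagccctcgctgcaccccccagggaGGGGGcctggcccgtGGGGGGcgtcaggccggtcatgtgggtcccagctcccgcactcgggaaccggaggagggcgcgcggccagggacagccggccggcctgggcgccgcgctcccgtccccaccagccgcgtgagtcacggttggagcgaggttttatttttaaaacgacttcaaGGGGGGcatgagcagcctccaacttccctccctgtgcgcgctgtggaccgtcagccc

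The motif searched was a run of GGGG on either strand (CCCC on the printed one). The printed strand held 3 such G runs at FGFR2 start 4, 3 at FGFR2 start 5, 8 at FGFR3, 5 at FGFRL1, 1 at FLRT1 start 1 and 4 at FLRT1 start 2. C runs numbered 10 at FLRT1 start 1 and 9 at FGFR3, so that these uncovered starts carried G runs on the other strand as well. GC skew, (G − C)/(G + C) on the printed strand, was 0.21 at FGFR2 start 5 and -0.30 at FLRT1 start 1. Such runs are common: of 35116 promoters in the table, 75.1% held GGGG, 73.6% CCCC and 89.6% at least one of them. The median promoter had a GC content of 58.7% and a skew of 0.01. Of all promoters, 67.8% were covered in no sample and 14.2% in every sample. Among the 7119 with a GC content of at least 70%, 42.8% were covered in no sample. Both starts of FGFR4 (78.7% and 57.3%), those of FLRT2 (59.0%, 65.0% and 65.0%) and that of FLRT3 (48.7%) were uncovered as well, so that uncovered starts of members had GC contents on both sides of the median.

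FGF17, the ligand, lies at chr8:22039672-22048809 (hg38, plus strand), between NPM2, a histone chaperone gene of the egg, and DMTN, which encodes the actin-binding protein dematin. Peaks covered 7302, 7951 and 7507 bp of its window in the shT2 samples and 498, 0 and 0 bp in the shNC3 samples. All shT2 values thus lay far above the only shNC3 value over 0. The scaled means were 7.20 ± 0.143 kb (SD, n = 3) and 0.167 ± 0.289 kb, a difference of 3.61 (SE 0.29) on the log2(bp + 500) scale. The cover began upstream of the gene and ran through its start: merged over samples, 1 region extended from -3596 to 5125 bp, counted from the 5′ end with upstream positions negative. The 4 kb around the 5′ end were covered in full in all 3 shT2 samples. Fold enrichment at the tallest summit, the authors' value, was 8.59, 8.26 and 7.33 in shT2, with 37, 37 and 29 fragments. These summits lay 3517, 4794 and 1477 bp from the 5′ end, so that the block was shared while its highest point was not. The single shNC3 peak, in replicate 1, had 12 fragments, a fold of 4.02 and a summit 809 bp from the 5′ end. A second region, 7427 to 8100 bp from the 5′ end, held 506, 527 and 618 bp in shT2 and no peak in shNC3. At equal depth the window kept 7302, 7653 and 7097 bp in shT2 against 498, 0 and 0 bp.

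Peaks of FGF17 ran into the windows of both neighbours. NPM2 ends 2774 bp before FGF17, and 1226 bp of its window were covered by FGF17 peaks in each shT2 sample. Outside the FGF17 window, the NPM2 window held 420, 1596 and 1317 bp in shT2 and no peak in shNC3. In shT2 replicate 2 this cover was the upstream end of the FGF17 block, and the next peak lay 25272 bp below the FGF17 window. In shT2 replicates 1 and 3 the block supplied part of it, and a further peak lay 851 and 1003 bp below the window. DMTN begins 121 bp after FGF17. Its window outside that of FGF17 held 3523, 3937 and 2519 bp in shT2 and 1141, 913 and 1787 bp in shNC3. These unscaled lengths did not overlap between the groups. The share of all genes whose unscaled lengths separate was not counted, here or for the neighbours of other members below. Cover longer in shT2 was thus measured on both sides of FGF17, on the NPM2 side partly within the FGF17 block itself. The next peak below the FGF17 window in shNC3 lay 25272, 25272 and 31763 bp away.

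FLRT1 lies at chr11:64035931-64119171 (hg38, plus strand), wholly inside MACROD1, which encodes a mono-ADP-ribosyl hydrolase of mitochondria. Peaks covered 9373, 8604 and 11264 bp of its window in the shT2 samples and 0 bp in all 3 shNC3 samples. The scaled mean in shT2 was 9.28 ± 1.61 kb (SD, n = 3); with no shNC3 peak there is no fold. The cover was made of many short peaks, 16, 16 and 15 per shT2 sample, with median widths of 488, 496.5 and 621 bp and median folds of 4.39, 4.03 and 4.64. Merged over samples they formed 24 regions, of which 6 were present in all 3 shT2 samples and 11 in 1 sample only. With at least 0.5 of a region covered, 2 of the 6 were still present in all 3. FLRT1 thus joined a shared part and a part that varied from sample to sample.

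The largest shared region of FLRT1 lay upstream of its start, at -3439 to -307 bp, and held 2143, 2855 and 2993 bp in the shT2 samples. The tallest summit of each sample stood there, with 33, 53 and 37 fragments and folds of 7.73, 10.9 and 8.65. These summits lay at -889, -2959 and -2959 bp. In shT2 replicates 2 and 3 they were thus outside the FLRT1 window and inside the span of the lncRNA LOC124902685. The next region began 726 bp inside the gene and ended at 2287 bp (1370, 791 and 316 bp). The GC-rich FLRT1 start 1 printed above fell into the gap between both regions, and start 2 touched the second. The other 4 shared regions lay at 2803 to 3667, 5151 to 7562, 20985 to 22233 and 23713 to 24522 bp. Only 12 of the 47 shT2 peaks had a fold of at least 5. At equal depth 36 of the 47 were kept, and the window still held 8016, 6696 and 9691 bp in shT2 against 0 bp in shNC3.

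Around FLRT1, MACROD1 was covered under both hairpins. Outside the FLRT1 window it held 27875, 28409 and 26902 bp in shT2 and 20743, 16343 and 21218 bp in shNC3, so that its shNC3 peaks all lay outside FLRT1. The unscaled lengths outside FLRT1 did not overlap between the groups. The lncRNA LOC124902685, which ends 2746 bp before FLRT1, had 6103, 6200 and 6084 bp in shT2 and 399, 0 and 0 bp in shNC3, with 839, 1254 and 1254 bp of the shT2 cover shared with FLRT1. The block upstream of FLRT1 therefore continued into this lncRNA. The nearest shNC3 peaks lay 5678, 18139 and 11073 bp below the FLRT1 window and 2549, 2549 and 4748 bp above it. A peak in MACROD1 or FLRT1 cannot be assigned to either gene's transcript, since the lists hold no strand.

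FLRT2 (chr14:85530144-85654428) and FLRT3 (chr20:14322985-14337612, inside MACROD2) had no peak in any of the 6 samples, and neither had MACROD2 or the antisense lncRNA FLRT2-AS1. Of all protein-coding genes, 7001 (34.9%) shared that state. The peak lists do not say whether such a gene is untranscribed or transcribed without a detected R-loop.

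**Figure D2:**
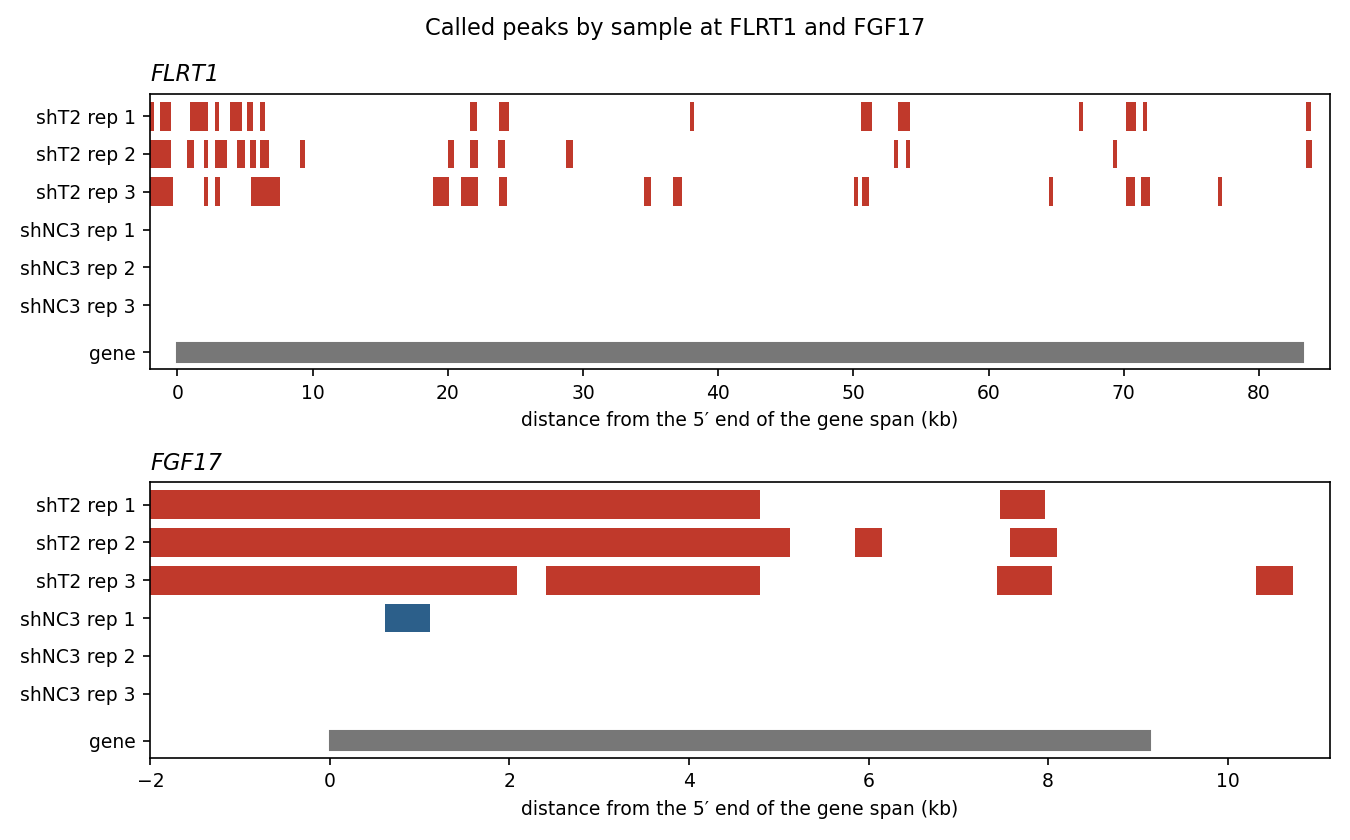
Peaks of each of the 6 samples along FLRT1 and FGF17 (x axis, distance from the gene's 5′ end in kb; 1 row per sample, shT2 above shNC3), with the gene span marked. FLRT1 shows scattered shT2 peaks that are densest around its start and none in shNC3, and FGF17 shows a block over its start in the 3 shT2 rows and 1 short peak in shNC3 replicate 1.

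FGFR2 lies at chr10:121478330-121598458 (hg38, minus strand). Peaks covered 3618, 6624 and 4074 bp in the shT2 samples and 426, 1083 and 1386 bp in the shNC3 samples. Replicate 2 was the highest of shT2, and all shT2 values lay above all shNC3 values. The scaled means were 4.49 ± 1.34 and 1.03 ± 0.535 kb (SD, n = 3), a ratio of 4.35 and a log2 difference of 1.74 (SE 0.32). Cover came mostly from the start and the 3′ part of the gene, and no sample had a peak within 2 kb of the 3′ end itself. Merged over samples, a region at the start, at -432 to 2966 bp, had cover in all 6 samples. It held 1566, 3399 and 1851 bp in shT2 and 426, 1083 and 1386 bp in shNC3. Only the peak of shT2 replicate 2 spanned it whole. The peak of shNC3 replicate 1 lay at -432 to -7 bp, while those of shT2 replicates 1 and 3 began at 1401 and 1116 bp. The samples thus did not share 1 site there. With at least 0.5 of the region covered, it was present in 2 shT2 and 0 shNC3 samples. All shNC3 cover of FGFR2 lay in that region. A region 112345 to 114497 bp from the 5′ end, near the 3′ end, held 1263, 1849 and 1825 bp in shT2 and no peak in shNC3. Of the 8 regions, 5 were seen in 1 sample only. Peaks were weak: the tallest reached a fold of 6.17, 5.67 and 5.99 in shT2 and 2.85, 4.79 and 5.96 in shNC3. At equal depth the values were 2661, 6324 and 2758 bp against 426, 1083 and 1386 bp, and the groups still did not overlap. With the 2 kb windows around both gene ends alone, the log2 difference was 0.64.

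FGFR1, the receptor with the most cover, lies at chr8:38411143-38468635 (hg38, minus strand). Peaks covered 19619, 22220 and 20306 bp in shT2 and 18221, 17550 and 19106 bp in shNC3. Before scaling the shT2 values were all higher, and after scaling the groups overlapped, with means of 19.6 ± 0.639 and 19.4 ± 0.885 kb (SD, n = 3) and a log2 difference of 0.02 (SE 0.05). Its tallest peak had its summit at the same base in all 6 samples, 56983 bp from the 5′ end and thus close to the 3′ end of the gene, which is 57493 bp long. That summit held 109, 115 and 91 fragments in shT2, with folds of 25.0, 25.2 and 22.5, and 49, 51 and 50 fragments in shNC3, with folds of 17.9, 19.6 and 18.6. The background there was 3.31, 3.46 and 3.08 fragments in shT2 and 1.79, 1.65 and 1.74 in shNC3. Because the fold adds a constant to summit and background, it is lowered more in shNC3, and folds are not compared between the groups. The region around it spanned 10091 bp and was present in all 6 samples, as were a region over the 5′ end (-1126 to 2727 bp) and 2 regions 8161 to 12594 and 12858 to 17822 bp inside. One region of 463 bp, 18695 to 19157 bp from the 5′ end, held 463, 291 and 295 bp in shT2 and no peak in shNC3. The lncRNA LOC102723716 (chr8:38400088-38413011) overlaps the 3′ end of FGFR1 and holds this summit. Its window shared 5496, 5523 and 5869 bp of cover with FGFR1 in shT2 and 4329, 5331 and 4369 bp in shNC3, and the peak cannot be assigned to either gene. Cover ran on into LETM2, a mitochondrial membrane protein gene that lies 1615 bp away. Outside the FGFR1 window LETM2 held 4930, 5575 and 5162 bp in shT2 and 2270, 2016 and 2449 bp in shNC3. The unscaled lengths of LETM2 outside FGFR1 thus did not overlap between the groups.

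FGFR3 lies at chr4:1793293-1808867 (hg38, plus strand). Peaks covered 4260, 4472 and 4446 bp in shT2 and 4362, 3442 and 4534 bp in shNC3, with 1 low value in shNC3 replicate 2 and overlapping groups. The scaled means were 4.17 ± 0.150 and 4.34 ± 0.425 kb (SD, n = 3), a log2 difference of -0.05 (SE 0.10). No sample had a peak within 2 kb of the FGFR3 start. All 6 shared a region over the 3′ part of the gene (10869 to 14571 bp from the 5′ end) and one that crossed the 3′ end (15375 to 19135 bp). The second held the tallest peak, with folds of 13.9, 13.5 and 12.6 in shT2 and 13.3, 10.5 and 12.8 in shNC3. That peak ran on towards LETM1, which encodes a mitochondrial ion exchanger and whose window shared 1389 bp with FGFR3 in all 6 samples. Outside the FGFR3 window LETM1 held 23517, 25350 and 24038 bp in shT2 and 19411, 18299 and 18272 bp in shNC3, unscaled.

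FGFRL1, the receptor without a kinase, lies at chr4:1010212-1026898 (hg38, plus strand). Peaks covered 9007, 10202 and 10577 bp in shT2 and 13481, 9408 and 9241 bp in shNC3. Replicate 1 of shNC3 was the highest of all 6, and the other 2 shNC3 values lay within the shT2 range. The scaled means were 9.43 ± 0.831 and 11.3 ± 2.05 kb (SD, n = 3), a log2 difference of -0.24 (SE 0.13). Of its 6 regions, 5 were present in all 6 samples. The tallest peak, with folds of 26.3, 28.4 and 26.4 in shT2 and 20.8, 21.1 and 24.1 in shNC3, lay mostly upstream, at -9793 to -652 bp. Only the last part of that peak fell into the FGFRL1 window, and its folds, lowered more in shNC3, are not compared between the groups. The remaining region, 12695 to 14825 bp from the 5′ end, held 2131, 404 and 535 bp in the shNC3 samples and no peak in shT2. Of the 63 regions of all members, it was the only one found in every shNC3 sample and no shT2 sample.

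FGFR4 lies at chr5:177086915-177098144 (hg38, plus strand). Peaks covered 379, 0 and 0 bp in shT2 and 872, 677 and 734 bp in shNC3. The 3 shNC3 values were higher than the 1 shT2 value above 0, and the scaled means were 0.122 ± 0.211 and 0.803 ± 0.0651 kb (SD, n = 3), a log2 difference of -1.12 (SE 0.29). The cover rested on 1 peak in shT2 replicate 1 and 2 peaks in each shNC3 sample, with folds of 3.64 to 4.66 and 10 to 12 fragments at the tallest shNC3 summits. None of its 4 regions was present in all 3 shNC3 samples, so the samples had like lengths at different places. None of its peaks reached a fold of 5. With 10 kb on each side the log2 difference was 0.89, of the other sign.

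**Figure D3:**
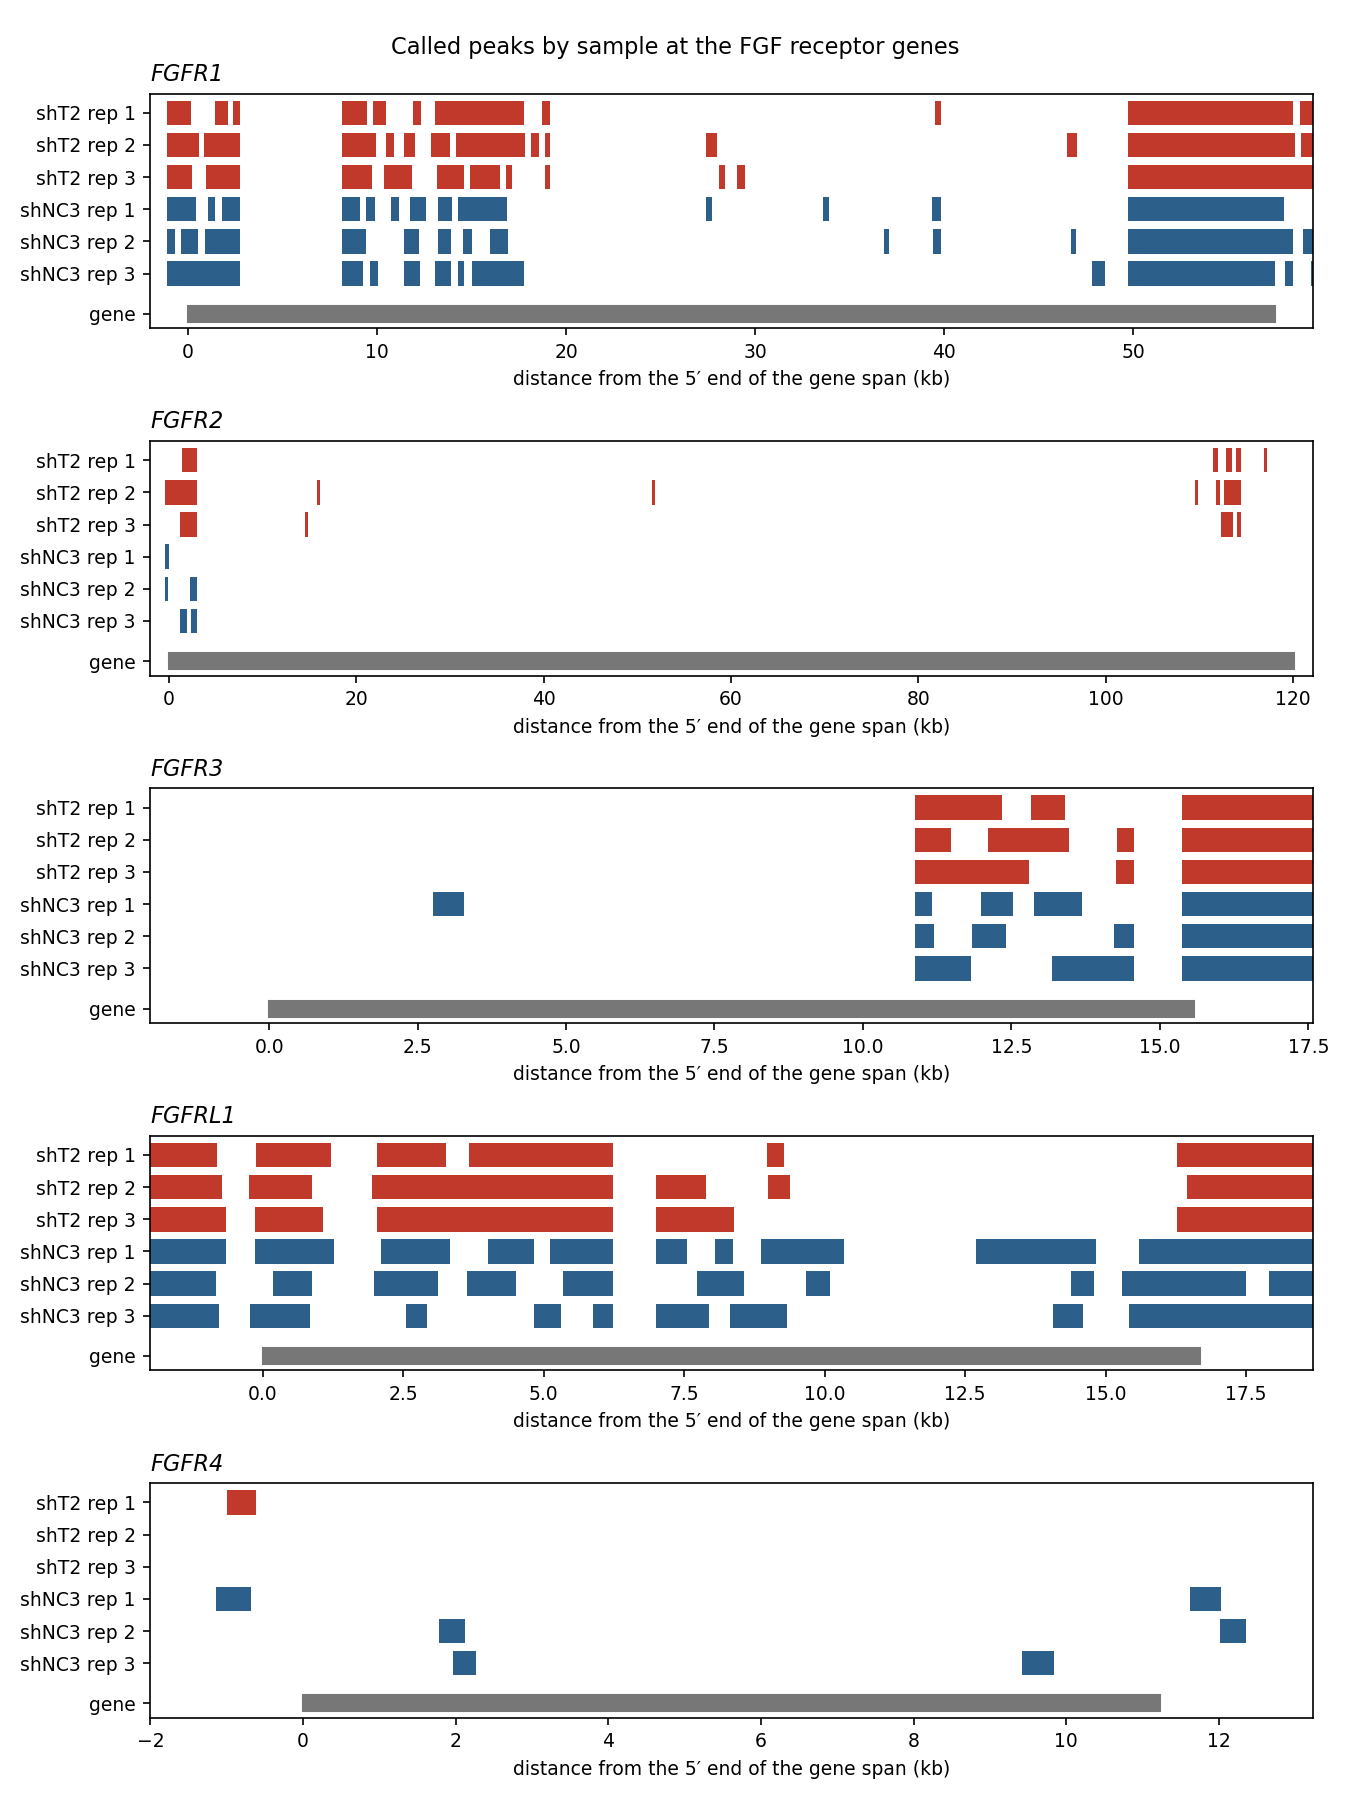
Peaks of each of the 6 samples along the receptor genes (x axis, distance from the gene's 5′ end in kb; 1 row per sample, shT2 above shNC3), with the gene span marked. FGFR1, FGFR3 and FGFRL1 show blocks at the same places in all rows, FGFR2 shows a block near its 3′ end in the shT2 rows alone, and FGFR4 shows short peaks at differing places.

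Per length, FGF17 was the most covered member in shT2, with 57.7 ± 2.53% of its window under peaks (unscaled, SD, n = 3). FGFRL1 came next with 48.0 ± 3.96%, then FGFR1 with 33.7 ± 2.19%, FGFR3 with 22.4 ± 0.591%, FLRT1 with 11.2 ± 1.57%, FGFR2 with 3.84 ± 1.31% and FGFR4 with 0.830 ± 1.44%. In shNC3 the order was FGFRL1 with 51.8 ± 11.6%, FGFR1 with 29.7 ± 1.27%, FGFR3 with 21.0 ± 3.00%, FGFR4 with 5.00 ± 0.658%, FGF17 with 1.26 ± 2.19%, FGFR2 with 0.777 ± 0.395% and FLRT1 with 0%. FGFRL1, FGFR1 and FGFR3 thus kept their order under both hairpins. FGF17 stood above them in shT2 and near the bottom in shNC3, where the FGFR2 mean lay within the spread of FGF17.

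**Figure D4:**
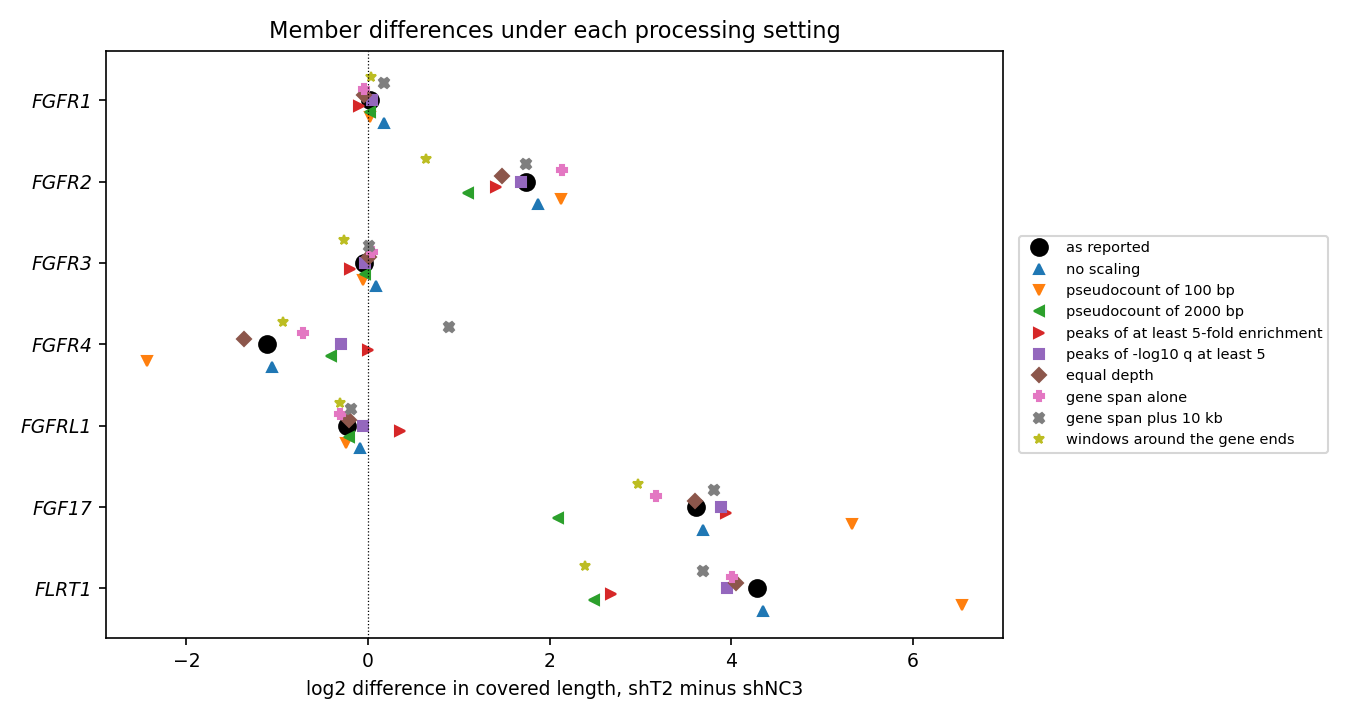
Log2 difference in scaled covered length, shT2 minus shNC3 (x axis), of each member with a peak under the reported setting and under each other setting. FGF17 spans 2.09 to 5.33, FLRT1 2.39 to 6.54 and FGFR2 0.64 to 2.13, all above 0, while FGFR1, FGFR3 and FGFRL1 lie on both sides of 0 and FGFR4 turns sign with 10 kb on each side.

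The DNA was cut with 5 restriction enzymes (BsrGI, EcoRI, HindIII, SspI and XbaI) before the pull-down, so part of a peak's width can be set by cut sites. Within the promoter sequences of the table, 571 of 573 peak end positions used by at least 3 samples (99.7%) lay within 10 bp of a site of one of these enzymes. Of positions used by 2 samples, 189 of 241 (78.4%) did, and of positions used by 1 sample, 305 of 9581 (3.18%). Over the members, 73 of 420 peak ends (17.4%) fell on positions used by at least 3 samples. The share was 41.0% in FGFR3, 27.5% in FGFR2, 21.6% in FGFR1, 12.5% in FGFRL1 and 6.59% in FLRT1, and no end of FGF17 (17 ends) or FGFR4 (14 ends) did. All 6 samples used 7 positions, 4 in FGFR1, 2 in FGFR3 and 1 in FGFRL1. FLRT1 had peaks in 3 samples and FGF17 and FGFR4 in 4, against 6 for FGFR3, so fewer samples could share an edge there. The shares therefore cannot be ranked between these members. The FGF17 cover had an end at the same base, chr8:22044467, in shT2 replicates 1 and 3.

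By the smallest Euclidean distance over the 6 values of log2(scaled covered bp + 500), the tested gene most like FGFR1 was RUFY1 (distance 0.113), that most like FGFR3 was COMMD4 (0.136) and that most like FGFRL1 was PRR5 (0.177). FGFR4 was closest to SLC6A4 (0.232) and FGFR2 to ZNF45 (0.584). FLRT1 was closest to CD160 (0.609), with 7.42, 6.11 and 8.00 kb in shT2 against no peak in shNC3, and FGF17 to LTV1 (0.822), with 4.48, 5.55 and 5.69 kb against 0.715, 0 and 0 kb. The distances of FGF17, FLRT1 and FGFR2 to their closest gene were thus larger than those of the other 4. These are descriptions over 6 libraries that share the depth difference between the hairpins.

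The other genes of the pathway, 92 in 6 lists that leave out the members, were read from the same fit. Of these, 68 were tested, 17 rose (25.0%, against 24.2% of all genes), 24 fell (35.3%, against 27.2%) and 27 did not pass. Their median log2 difference was -0.17, against -0.08 over all genes tested. Without scaling, 17 rose and 15 fell, and the median over all genes was 0.06. Leaving out shNC3 replicate 2 or replicate 3 gave 15 and 13 that fell, with 16 that rose in both cases, and leaving out shT2 replicate 2 gave 16 that fell. At equal depth 12 rose and 18 fell. KLB among the genes counted as risen, and FGF18, FGF12, ROBO1 and TENM2 among those counted as fallen, passed the filter through 1 hairpin alone and so had to differ; they are described by their lengths, with no p.

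Of 17 other secreted FGFs, 11 had no peak in any sample, as in FLRT2 and FLRT3. Of the 5 tested, none rose and 3 fell, and the median was -0.91. FGF18, a ligand in skeletal and brain development, was covered over 1.45 ± 0.343 kb in shNC3 and not in shT2. FGF22, a synaptic ligand, fell by 0.27 (adjusted p = 0.0242 in limma; 0.000237 to 0.121 under the alternatives), and FGF5, a hair growth ligand, fell by 0.98 (adjusted p = 0.0475 in limma; 0.0174 to 0.17). The FGF22 call was lost without shT2 replicate 2, shNC3 replicate 2 or shNC3 replicate 3, and at equal depth. That of FGF5 was lost when any 1 sample other than shNC3 replicate 2 was left out. FGF18 had to differ, FGF17 was selected with its longer cover known, and the calls of FGF22 and FGF5 were lost under several alternatives. These ligands are therefore not set against FGF17. Among the 4 FGF homologous factors, intracellular proteins that bind sodium channels, FGF14 rose by 0.60 (adjusted p = 0.00358 in limma), a call lost for peaks of at least 5-fold and of the other sign at the gene ends alone (-0.16). FGF12 was covered in shNC3, with 0.859 ± 0.504 kb, and not in shT2.

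Of 18 co-receptors, heparan sulphate carriers and FGF binding proteins, 11 were tested, 2 rose and 4 fell (median -0.34). KLB, the co-receptor for endocrine FGFs, had 2.55 ± 0.444 kb in shT2 and no peak in shNC3. SDC4, a syndecan, fell from 8.20 ± 1.46 to 0.342 ± 0.378 kb (-3.45, SE 0.33; limma, adjusted p = 0.000205). The syndecan SDC3 fell by 1.62 (adjusted p = 0.00163 in limma), a call lost at the gene ends alone, and the glypican GPC1 fell by 0.62 (adjusted p = 0.000177 in limma). CDH2, N-cadherin, fell by 0.41 (adjusted p = 0.0126 in limma; up to 0.187 under the alternatives). The syndecan SDC2 rose by 0.42 (adjusted p = 0.0489 in limma; 0.0195 to 0.751), a call lost when any 1 sample other than shNC3 replicate 2 was left out.

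All 23 signal transduction genes were tested, 8 rose and 7 fell (median -0.09). BRAF, a RAF kinase, rose from 1.15 ± 0.360 to 6.90 ± 0.657 kb (2.19, SE 0.18; limma, adjusted p = 0.000116). The adaptor GRB2 rose by 0.87 (adjusted p = 0.000303 in limma) and the adaptor CRKL by 0.69 (adjusted p = 0.00443), which was lost at equal depth and turned sign at the gene ends alone (-0.36). HRAS fell by 0.64 (adjusted p = 0.00191 in limma) and MAPK3, which encodes ERK1, by 0.57 (adjusted p = 0.00141). MAP2K2, which encodes MEK2, fell by 0.18 (adjusted p = 0.0237 in limma; 0.00103 to 0.721) and the docking protein gene GAB1 by 0.55 (adjusted p = 0.0341 in limma; 0.00655 to 0.442). The MAP2K2 call was lost without shT2 replicate 2, shNC3 replicate 2 or shNC3 replicate 3, and that of GAB1 without any 1 sample other than shT2 replicate 2. Genes of the chain thus moved in both directions.

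Of 18 feedback inhibitors and target genes, 16 were tested, 3 rose and 7 fell (median -0.19). SPRY4, a Sprouty inhibitor of receptor tyrosine kinase signalling, fell from 10.1 ± 1.04 to 3.26 ± 0.405 kb (-1.49, SE 0.11; limma, adjusted p = 7.58e-05). SPRY2 fell by 0.64 (adjusted p = 0.00174 in limma), and the MAP kinase phosphatase genes DUSP4 and DUSP5 fell by 0.94 (adjusted p = 0.000179) and 0.64 (adjusted p = 0.00735). IL17RD, also known as SEF, a membrane inhibitor of FGF signalling, rose from 2.73 ± 0.552 to 13.0 ± 1.59 kb (2.07, SE 0.15; limma, adjusted p = 6.4e-05). MYC rose by 0.68 (adjusted p = 0.000221 in limma). SPRED2 rose by 0.37 (adjusted p = 0.0322 in limma; 0.019 to 0.504), a call lost without shT2 replicate 1, shT2 replicate 2 or shNC3 replicate 3, with the other sign at the gene ends alone (-0.12).

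Of 12 FLRT binding partners, 10 were tested, 3 rose and 2 fell (median -0.20). UNC5A, a netrin receptor, rose from 0.578 ± 0.519 to 10.1 ± 0.697 kb (3.44, SE 0.38; limma, adjusted p = 0.000377). UNC5B rose by 0.44 (adjusted p = 0.000201 in limma), but at the gene ends alone it was called in the other direction (-0.17, adjusted p = 0.0372), and the teneurin TENM4 by 0.60 (adjusted p = 0.000889 in limma), a call lost for peaks of at least 5-fold. ROBO1, an axon guidance receptor, and TENM2 were covered over 0.434 ± 0.100 and 0.552 ± 0.321 kb in shNC3 and not in shT2. UNC5A thus had long cover in shT2 and little in shNC3, as had FLRT1 and FGF17, which were selected with such differences known. The share of all genes with long cover in shT2 and little in shNC3 was not counted. A stricter pattern, peaks in every shT2 sample and none in shNC3, held for FLRT1 but not for UNC5A or FGF17. It was not particular to FLRT1: 2.82% of all genes tested, KLB included, had it.

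**Figure D5:**
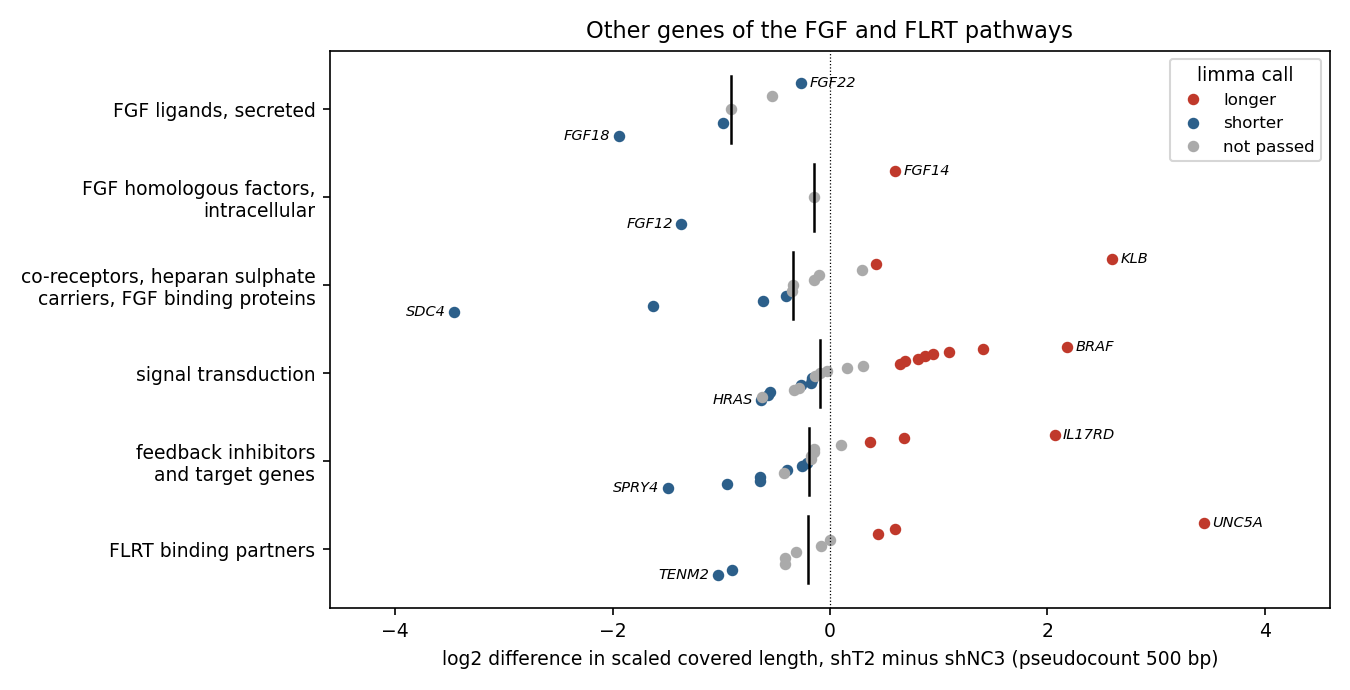
Log2 difference in scaled covered length, shT2 minus shNC3 (x axis, pseudocount 500 bp), of the 68 tested genes of the 6 pathway lists (y axis), coloured by whether they passed the limma test, with each list's median as a black bar. All list medians lie between -0.91 and -0.09, with UNC5A, KLB, BRAF and IL17RD farthest to the right and SDC4 farthest to the left.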

How the data were processed

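DRIP-seq peak lists of 6 SH-SY5Y samples were used, 1 per sample. The authors' deposited lists give each peak's position, an integer score (not used), the fold enrichment at the summit (a linear ratio), −log10 p and −log10 q. The fold was read as summit over background with 1 added to each. It is therefore lowered more in the shallower shNC3 libraries than in shT2. Alignment and peak-calling tools listed are Bowtie2 2.4.4, SAMtools and MACS2 2.2.6, with build hg38, per the submitters' processing notes. The control used for the peaks was not stated in the labels read. Separate cultures are not named by any label, so the p-values reflect spread among samples that may be technical.

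Rows sharing an interval were merged. Covered length per gene (RefSeq GRCh38.p14 span plus 2 kb) was scaled by each sample's total cover, and log2(bp + 500) of genes covered in at least 3 samples was fitted with limma 3.58.1 (R 4.3.3; trend and robust eBayes, Benjamini-Hochberg, threshold 0.05). Differences on this scale understate changes of short cover. The code was tested on simulated data. Summit fragments and background were recovered from fold and −log10 p. The members, lists and tests were chosen with earlier results of these data known. Named were the members, overlapping protein-coding neighbours, given with no p because they share the members' peaks (lncRNA neighbours were added after values were seen), up to 4 genes per list and direction with the smallest p, and the nearest gene by distance. The values of 1 gene that met this rule are not reported here. Alternatives were no scaling, other pseudocounts, peak thresholds, windows, filter and limma settings, equal depth, each sample left out, and a replicate block. The filter and limma settings were read for counts of calls alone, so the calls and adjusted p ranges of named genes leave them out. DRIP-seq does not measure the RNA of the targeted gene, so the knockdown was not checked.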

Additional observations from a re-analysis of the deposited data

How the results depend on the processing

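Several counts of genes called moved with the scaling, the peak threshold, the window and single samples. Without scaling, 2044 genes of all tested and 15 pathway genes fell. Folds are lowered more in the shallower shNC3 libraries, so a 5-fold threshold is stricter there. With peaks of at least 5-fold, 1846 of all genes rose and 1955 fell, 10 pathway genes rose and 14 fell, and 0 members were shorter in shT2 without overlap. That last count was also 0 with −log10 q of at least 5 and with the gene span alone. With 10 kb on each side 5 members were longer and 0 shorter in shT2 without overlap, and FGFR4 had a log2 difference of 0.89. At the gene ends alone 1572 of all genes and 8 pathway genes rose, 2 members were shorter, and the log2 difference turned sign in FGF14 (-0.16), SDC2 (-0.064), CRKL (-0.36), SPRED2 (-0.12) and UNC5B (-0.17, limma adjusted p = 0.0372). Counting a region as present only where at least 0.5 of it was covered, 5 regions were in every sample, 6 in all shT2 samples alone (9 as reported) and 0 in all shNC3 samples alone. With each sample left out in turn, 2095 to 2746 of all genes rose and 2348 to 2717 fell, 13 to 16 pathway genes rose and 13 to 18 fell, and 3 to 3 members were longer and 1 to 2 shorter. Replicate numbers did not pair the samples (correlations of -0.02, -0.06 and -0.01 for the same number). With the replicate block, 16 pathway genes rose and 19 fell, and of all genes 2829 rose and 2866 fell; FGF22, SDC2 and GAB1 lost their call. Of 31 pathway genes that met the naming rule, 16 kept their call and sign under each alternative read for them. These alternatives, which leave out the filter and limma settings, numbered 16 for 14 of the genes, 10 for FGF12 and 13 for KLB. FGF12 and KLB were under the filter in the rest. Both passed it through 1 hairpin alone and had to differ, so nothing is read from their kept calls. Depth limits peaks of few fragments: at equal depth 84.4 to 89.0% of shT2 peaks and 97.2 to 100% of shNC3 peaks were kept.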
